A study of Mus musculus with 2 samples.

Results

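Integrins, laminins and the linkers of the basement membrane were followed in total RNA of newborn mouse skeletal muscle. The genes were chosen by a rule on names, which used no levels but was set with earlier results of these data known. It took every protein-coding gene named as an integrin α or β chain or as a laminin α, β or γ chain. The nidogen genes Nid1 and Nid2 and the perlecan gene Hspg2 were added. The rule gave 40 genes among 43346 gene rows, and 39 of them are described, namely 18 integrin α chains, 8 integrin β chains, 10 laminin chains and 3 linkers. The series holds 1 group of 2 samples, both skeletal muscle of mice of the B6NCrl strain at postnatal day 0, with no treatment and no allele given in the labels. Replicate 1 is pup 1 and replicate 2 is pup 2 of a single pregnancy. The labels give both samples 1 donor entry, so the spread between them is biological only if they are separate animals, as the wording pup 1 and pup 2 has it. Which muscle was taken is not stated, sex was not recorded, and there is no condition to compare. Levels are given in TPM, a unit per transcript length that is scaled to a fixed sum in each library, and an SD is over n = 2.

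Skeletal muscle fibres are wrapped in a basement membrane, a sheet of laminin and collagen IV networks that nidogens and perlecan link together. Laminins are trimers of an α, a β and a γ chain, and are named by the numbers of those chains. Fibres hold on to this sheet through dystroglycan and through integrins, receptors made of an α and a β chain, of which α7β1 is the main laminin receptor of adult muscle. Loss of the laminin α2 chain or of integrin α7 causes muscular dystrophy or myopathy in humans and mice.

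Averaged over the pups, 29 of the 39 genes described reached 1 TPM, and 58.2% of all 21474 protein-coding genes matched reached that level. These were 12 of 18 integrin α chains, 7 of 8 integrin β chains, 7 of 10 laminin chains and all 3 linkers. The integrin β1 gene Itgb1 was the highest, at 219 TPM in replicate 1 and 203 TPM in replicate 2, which put it at the 97.3 percentile of protein-coding genes. It was followed by Nid1, by the laminin chains Lamb1, Lamc1 and Lama4, and by the integrin α chain Itga7. The 10 genes under 1 TPM were Itga3, Itga10, Itga11, Itgad, Itgae, Itgax, Itgb7, Lama1, Lama3 and Lamc3, and each of them was under 1 TPM in both pups.

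**Figure D1:**
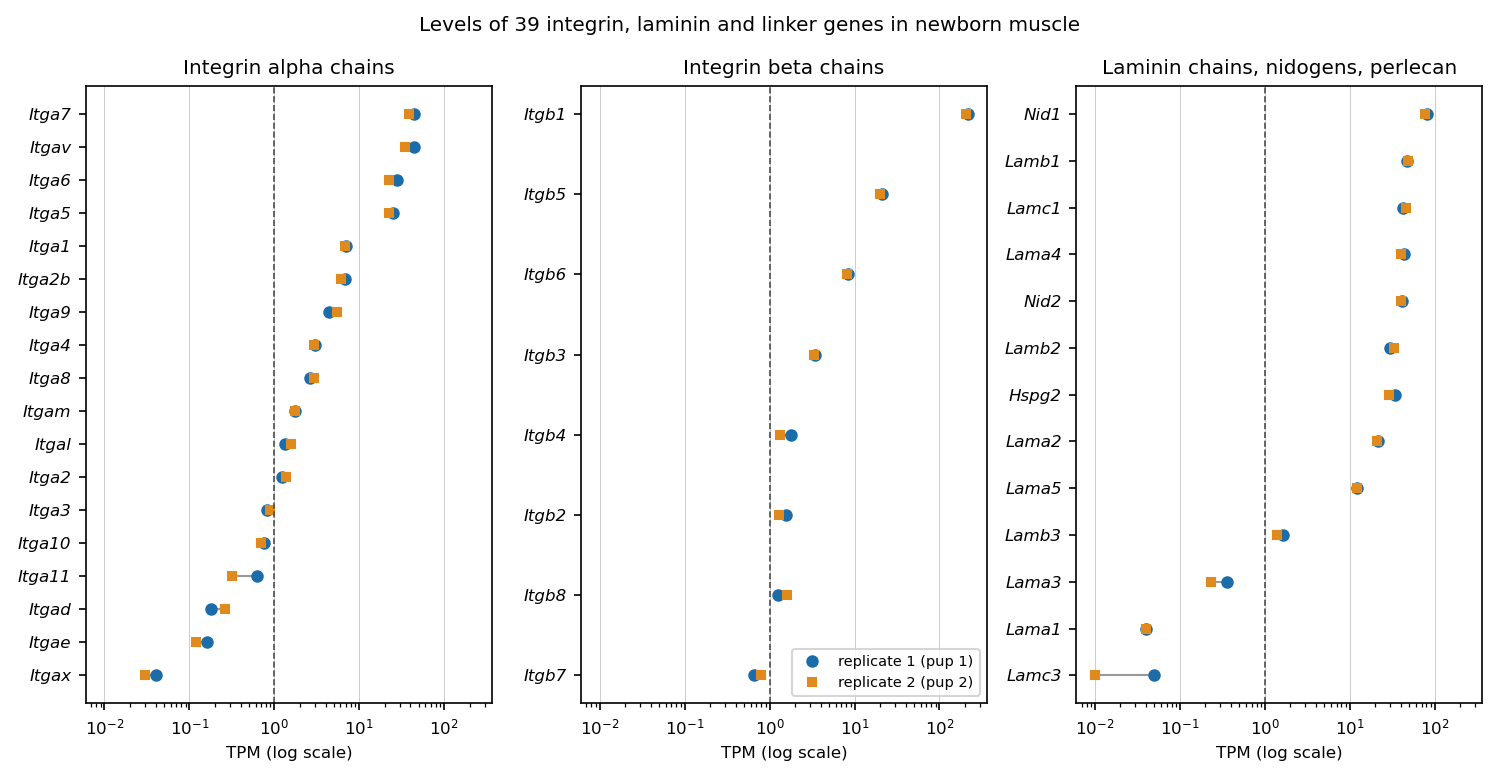
Level of each of the 39 genes in TPM (log axis) in replicate 1 (circles) and replicate 2 (squares), for integrin α chains, integrin β chains, and laminin chains with nidogens and perlecan; the dashed line is 1 TPM. The symbols of the pups lie close together for most genes, with Itgb1 far to the right at 219 and 203 TPM, and stand apart for Itga11 and Lamc3.

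The gene tables held 40454569 and 37150646 expected counts in replicates 1 and 2, and a chi-square of 62.99 per degree of freedom over 17020 genes set the files apart as separate libraries. Defining markers of muscle fibres (8 of 8 at or above 1 TPM, led by Acta1, Mylpf and Ckm) summed to 92187 and 102856 TPM. Satellite cells (5 of 5; Myod1, Cdh15, Myf5), endothelium (6 of 6; Egfl7, Pecam1, Cdh5), pericytes and smooth muscle (5 of 5; Acta2, Rgs5, Pdgfrb), fibroblasts (5 of 5; Col1a1, Col1a2, Dcn), Schwann cells (3 of 3; Mbp, Sox10, Egr2) and mast cells (4 of 4; Cma1, Cpa3, Mcpt4) were all represented, with no marker past 2-fold between the pups in scaled counts. Mast cell markers came near it, with sums of 1208 and 650 TPM and a median log2 ratio of 0.74. The libraries differed more in other tissues. Keratinocyte markers summed to 445 TPM in replicate 1 and 9.40 TPM in replicate 2. Adipocyte markers (Cfd, Adipoq, Retn, Cidec and Plin1) summed to 2392 and 102 TPM. Cartilage markers (Col2a1, Sox9, Snorc, Col9a1, Matn1 and Acan) summed to 42.9 and 4.09 TPM. In bulk RNA, fewer cells of a type and less RNA per cell cannot be told apart.

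Among the integrin β chains, β1 prevailed. Itgb1 (ENSMUSG00000025809.11, chromosome 8, 128685654 to 128733200, plus strand, mm10) encodes the β chain shared by most integrins of solid tissues, and held 85.0 ± 0.27% of the summed TPM of the 8 β genes. Next came Itgb5, with 21.0 TPM in replicate 1 and 19.8 TPM in replicate 2, and Itgb6, with 8.29 and 8.16 TPM. Both encode αv partners, the β6 chain being known mainly from epithelia, where it activates latent TGF-β. Itgb3, which serves platelets with αIIb and many cells with αv, had 3.41 and 3.37 TPM. These 4 genes kept their order with no overlap between the pups. Below them, Itgb4 (1.80 and 1.32 TPM), which anchors epithelial cells to their basement membrane as α6β4, Itgb2 (1.55 and 1.30 TPM), the β chain of leukocyte integrins, and Itgb8 (1.24 and 1.60 TPM), another activator of latent TGF-β, overlapped one another. Itgb7, a lymphocyte chain, was lowest at 0.65 and 0.80 TPM, from 50 and 58 counts.

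Itgb1 is spliced at its 3′ end into forms with different cytoplasmic tails. The common tail is β1A, and β1D is the form known from striated muscle. The files carry 4 models of the gene, and the β1D exon stands in a partial model of 711 nt, Itgb1-204, against 3815 nt for the β1A model Itgb1-201. The tail codons are shown because they are all that separates the forms. They are read 5′ to 3′ on the plus strand from the transcripts of GENCODE M21 (mm10), from the start of the last coding exon to the stop codon, with the codons of the NPxY motifs, which bind talin and kindlin, in capitals.
Itgb1-201, β1A, chr8:128732023-128732088: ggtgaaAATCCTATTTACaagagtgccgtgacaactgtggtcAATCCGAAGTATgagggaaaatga
Itgb1-204, β1D, chr8:128726983-128727057: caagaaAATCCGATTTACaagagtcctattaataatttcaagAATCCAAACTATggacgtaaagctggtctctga
Each tail holds 2 such motifs, with 21 codons before the stop in β1A and 24 in β1D. The β1A model had 20407 and 17589 counts in replicates 1 and 2, and 84.0% and 82.4% of the gene's TPM. The β1D model had 637 and 617 counts, and 15.9% and 17.6% of the TPM. By counts its share was only 3.03% and 3.39%, since a short model gathers few reads per molecule. Both readings were close between the pups. No full-length β1D model is among the 4, so the β1D share depends on how the authors' model split reads over the last exons.

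The laminin-binding α chains differed widely in level. Itga7 (ENSMUSG00000025348.8, chromosome 10, 128933818 to 128958282, plus strand), the muscle laminin receptor chain, had 43.5 TPM in replicate 1 and 38.9 TPM in replicate 2, from 5088 and 4304 counts. It held 25.8 ± 0.47% of the summed TPM of the 18 α genes. Itga7 has 1 model in the files, so its splice forms in the extracellular and cytoplasmic parts could not be told apart. Itga6 (chromosome 2, 71745616 to 71858416, plus strand), a laminin receptor chain of satellite cells, vessels, nerve and epithelia, had 28.0 and 22.2 TPM. The ratio of Itga7 to Itga6 was 0.72 ± 0.12 on the log2 scale of TPM plus 0.1. Itga3, which binds laminins in epithelia, had 0.81 and 0.88 TPM, from 116 counts in each pup, and Itga7 lay 5.45 ± 0.19 log2 units above it.

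Itga6 also makes alternative cytoplasmic tails, α6A and α6B, and the model with the α6A tail had more RNA than the model with the α6B tail. The tails are shown in the same way, with the codons of the GFFKR motif in capitals, the membrane-proximal stretch that integrin α chains share. Inclusion of an exon of 130 nt gives α6A, and skipping it gives α6B.
Itga6-201, α6A, chr2:71853534-71853641: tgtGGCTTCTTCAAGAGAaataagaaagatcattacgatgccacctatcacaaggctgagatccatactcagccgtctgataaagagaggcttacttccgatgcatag
Itga6-202, α6B, chr2:71855854-71856015: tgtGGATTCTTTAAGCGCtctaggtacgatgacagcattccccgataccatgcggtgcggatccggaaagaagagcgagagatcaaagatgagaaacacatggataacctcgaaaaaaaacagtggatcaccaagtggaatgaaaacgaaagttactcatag
Both open with cysteine and GFFKR codons and then part, with 35 codons before the stop in α6A and 53 in α6B. The α6A model had 1777 and 1329 counts in replicates 1 and 2, 50.5% and 50.2% of the gene's TPM. The α6B model had 34.8 and 3.13 counts, 1.03% and 0.12% of the TPM. By posterior means its share was 1.92% in replicate 1 and 2.12% in replicate 2, so the gap between the pups was not seen there. A processed model of 2721 nt, Itga6-203, took 40.4% and 40.2%, and cannot be assigned to either tail from its share alone.

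The collagen-binding α chains were modest. Itga1, found on vessels and mesenchyme, had 6.93 TPM in replicate 1 and 6.72 TPM in replicate 2. Itga2, best known from platelets and epithelia, had 1.24 and 1.37 TPM, and Itga1 exceeded it by 2.30 ± 0.13 log2 units. Itga10, a cartilage chain, had 0.75 and 0.70 TPM from 110 and 97.6 counts. In the GENCODE M21 annotation, 33.5% of the exon bases of Itga10 also belong to the gene Gm42957 on the same strand, and reads there could be split. Itga11, the fibroblast receptor for fibrillar collagen, had 0.63 and 0.32 TPM from 92 and 42 counts.

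Chains that bind fibronectin and other RGD ligands included the fibronectin receptor chain Itga5, at 24.9 TPM in replicate 1 and 22.3 TPM in replicate 2. Itgav, the chain of the αv integrins, was listed at 43.6 and 34.2 TPM, but 85.9% and 77.5% of that came from Itgav-205, a partial coding model of 463 nt with 408 and 273 counts. In models at least 50% as long as the longest, Itgav had 4.78 and 5.0 TPM. Read that way Itgav lay below Itga5, which has 1 model, and the log2 ratio of Itga5 to Itgav was 2.25 ± 0.16, against -0.71 ± 0.14 over all models. The place of Itgav among the α chains thus rests on a single short model. As listed, Itgav overlapped Itga7 between the pups, and Itga5 overlapped Itga6. Itga8, which binds nephronectin, had 2.66 and 2.96 TPM. The platelet chain Itga2b was listed at 6.82 and 6.11 TPM, and at 1.03 and 1.00 TPM in the longer models. Platelet markers (2 of 5 at or above 1 TPM) summed to 318 and 189 TPM, nearly all from Pf4. Ppbp had 87 and 49 counts, Gp1ba 14 and 22, Gp9 1 and 6, and Gp6 1 and 0.

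The closely related chains Itga9, known from lymphatic valves and for binding tenascin and VCAM-1, and Itga4, the receptor chain for VCAM-1 and fibronectin, came at intermediate levels. Itga9 had 4.38 TPM in replicate 1 and 5.47 TPM in replicate 2. Itga4 had 3.03 and 2.94 TPM, and 1.75 and 1.89 TPM in the longer models.

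The leukocyte α chains were all low, and Itgad, Itgae and Itgax were the lowest of the 18 α genes. The macrophage and neutrophil chain Itgam had 1.77 and 1.74 TPM in replicates 1 and 2, and the lymphocyte chain Itgal 1.35 and 1.57 TPM. Itgae, the chain of tissue T cells that binds E-cadherin, had 0.16 and 0.12 TPM. Itgax, a dendritic cell chain, had 5 and 3 counts, and Itgad, a macrophage chain, 3 and 4 counts. Leukocyte markers were present in both pups, with 6 of 8 at or above 1 TPM, a sum of 169 TPM in replicate 1 and 118 TPM in replicate 2, and Tyrobp, Laptm5 and Cd68 in the lead. In GENCODE M21, 68.7% of the exon bases of Itgam also lie in the gene Gm49368 on the same strand. The authors' quantification held Gm49368-201 and Gm49368-202 as models of Itgam itself, each with 0 counts in both pups. Another model, ENSMUST00000126475.1, took 47.6% of the TPM of Itgam in replicate 1 and 63.5% in replicate 2. It is absent from GENCODE M21, so that part of the level is uncertain.

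Integrin chains were then set against each other in the 24 pairs that are known to form receptors. A pair counted as unequal where both pups had the same sign and the mean log2 ratio exceeded 3 SD. Over all models the α chain was higher in 7 pairs, the β chain in 15, and 2 pairs lay within that limit. Of the 7, Itgav with Itgb5, Itgav with Itgb6 and Itga2b with Itgb3 had the β chain higher in the longer models. All 12 α chains that join β1 were below Itgb1. The nearest were Itga7, at -2.36 ± 0.04 log2 units, Itgav at -2.45 ± 0.17, Itga6 at -3.07 ± 0.16 and Itga5 at -3.15 ± 0.04. In the longer models Itgav lay at -5.14 ± 0.14, below Itga1 at -4.66 ± 0.06. Over all models Itga1 lay at -4.93 ± 0.04, Itga9 at -5.40 ± 0.30, Itga4 at -6.10 ± 0.05 and Itga8 at -6.18 ± 0.18. Itga2, Itga3, Itga10 and Itga11 lay lowest, between -7.23 ± 0.17 and -8.57 ± 0.49. Summed, the 12 α chains came to 160 TPM in replicate 1 and 139 TPM in replicate 2, which is 0.733 and 0.684 of Itgb1. In the longer models alone the fractions were 0.638 and 0.635. Several of these α chains also have partners other than β1.

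Outside the β1 pairs, the α chain was often in excess. Itga6 exceeded Itgb4 by 3.93 ± 0.06 log2 units, so the RNA for β4 was the scarcer of the α6β4 pair. Itga4 exceeded Itgb7 by 1.91 ± 0.22, while the ratio of Itgae to Itgb7 was -1.78 ± 0.36. Itgav exceeded Itgb8 by 4.68 ± 0.49, Itgb3 by 3.47 ± 0.24, Itgb6 by 2.22 ± 0.23 and Itgb5 by 0.92 ± 0.19. In the longer models the sign turned for Itgav against Itgb5 (-1.91) and Itgb6 (-0.69), but not against Itgb8 (2.41) or Itgb3 (0.52). Itga2b against Itgb3, the platelet pair, likewise had a ratio of 0.91 ± 0.10 over all models and -1.65 in the longer ones. The leukocyte chains Itgal (0.03 ± 0.31) and Itgam (0.29 ± 0.15) were close to Itgb2 within the spread of the pups, whereas Itgad and Itgax were below it in both pups. At 3 to 5 counts their distance to Itgb2 depends on the value added: for Itgax it was -5.00 with 0.01 TPM and -1.23 with 1 TPM, and for Itgad -2.66 and -0.99. Of the 24 dimers, 17 had each chain at or above 1 TPM in both pups. By the mean of its scarcer chain α7β1 was highest, at 41.2 ± 3.25 TPM, although in replicate 1 αvβ1 stood level with it over all models (43.6 against 43.5 TPM).

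**Figure D2:**
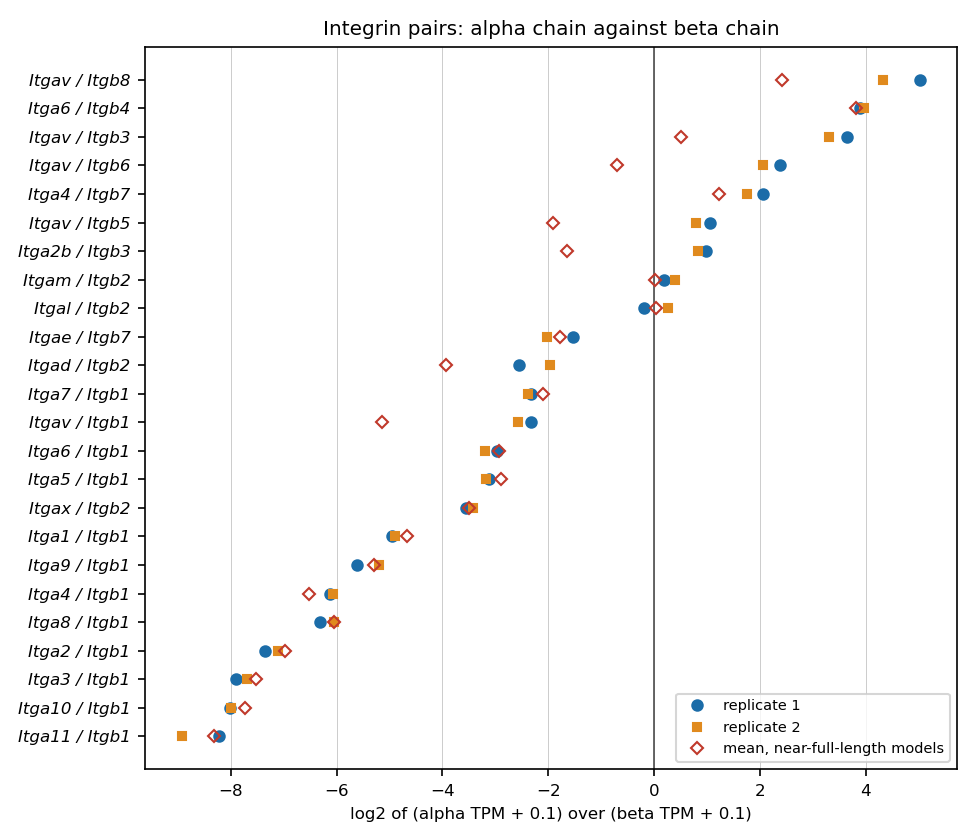
Log2 ratio of α chain over β chain (TPM plus 0.1) for 24 integrin pairs, in replicate 1 (circles) and replicate 2 (squares), with the mean over models at least 50% as long as the longest (open diamonds). The pairs with Itgb1 all lie left of 0, and the diamonds stand far from the other symbols for pairs with Itgav and Itga2b.

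Within the β chains, Itgb1 exceeded Itgb5 by 3.36 ± 0.01 log2 units and Itgb3 by 5.92 ± 0.06, and the ratio of Itgb3 to Itgb5 was -2.55 ± 0.05. Among the α chains, Itga7 exceeded Itga5 by 0.80 ± 0.00 and Itga5 exceeded Itga4 by 2.94 ± 0.08. Itgam exceeded Itgax in both pups, but by 5.30 with 0.01 TPM added and 1.41 with 1 TPM added, as Itgax lay under the 0.1 TPM used. Together with the laminins and linkers, 20 pairs of this second kind were compared; by the same limit, the gene named on top of the ratio was higher in 15 and lower in 5.

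The laminin α chain sets which receptors a laminin binds, and in newborn muscle α4 had the most RNA. Lama4 (ENSMUSG00000019846.7, chromosome 10, 38965515 to 39110188, plus strand), the chain of vessel and early muscle basement membranes, had 43.8 TPM in replicate 1 and 39.7 TPM in replicate 2. Lama2 (ENSMUSG00000019899.11, chromosome 10, 26980036 to 27619758, minus strand), the chain of the mature fibre, had 21.6 and 20.9 TPM. Lama5, a chain of vessels, epithelia and the synaptic basement membrane, had 12.03 and 12.25 TPM. The order Lama4, Lama2, Lama5 was the same in both pups without overlap. As shares of the laminin α TPM, α4 held 55.3 ± 1.38%, α2 28.1 ± 0.56% and α5 16.1 ± 0.92%. Lama3, an epithelial chain, had 0.36 and 0.23 TPM from 70 and 54 counts. Lama1, a chain of embryonic basement membranes, had 10 counts in each pup, 0.04 TPM. Lama2 lay 5.78 ± 0.30 log2 units above Lama3, and its ratio to Lama4 was -0.97 ± 0.06. Lama2 was above Lama1 in both pups, by a distance that the added 0.1 TPM largely sets: it was 8.73 log2 units with 0.01 TPM added and 4.42 with 1 TPM added.

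The order of the 3 main laminin α chains also held in the longer models, but the distances changed. There Lama4 had 22.4 TPM in replicate 1 and 21.9 TPM in replicate 2, Lama2 7.98 and 9.33 TPM, and Lama5 2.02 and 2.22 TPM. The ratio of Lama2 to Lama4 was then -1.35 ± 0.18, and that of Lama4 to Lama5 was 3.33 ± 0.11 log2 units, against 1.77 ± 0.12 over all models. For Lama2, the model Lama2-206, a retained intron of 643 nt, took 46.0% and 33.5% of the TPM with 162 and 108 counts. The coding model Lama2-201 of 9614 nt took 33.0% and 39.9% with 2031 and 2242 counts. Lama5 was split over 3 noncoding models under 1000 nt and the coding Lama5-201, which held 16.8% and 18.1% of the TPM and 682 and 709 of its counts. Lama4-207, a retained intron of 511 nt, took 43.2% and 40.1%.

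Among the β and γ laminin chains, Lamb1 and Lamc1 led. Lamb1, the widespread β1 chain, had 47.1 TPM in replicate 1 and 48.6 TPM in replicate 2. Lamb2, the β2 chain that gathers at the neuromuscular junction and in vessels, had 29.6 and 33.2 TPM. The ratio of Lamb1 to Lamb2 was 0.61 ± 0.09 on the log2 scale, and 0.53 ± 0.01 in the longer models. Lamb3, an epithelial chain, had 1.65 and 1.38 TPM, with a log2 ratio to Lamb1 of -4.90 ± 0.20. Lamc1, the γ1 chain of most laminins, had 42.5 and 46.1 TPM. Its coding model Lamc1-201 took 52.1% and 51.1% of that, and a coding model of 1447 nt, Lamc1-204, took 46.5% and 46.6%. Lamc3, a γ chain of nerve and other tissues, had 6.94 and 1.18 counts. Lamc1 stood above Lamc3 in both pups, by 10.32 log2 units with 0.01 TPM added and 5.46 with 1 TPM added, so the distance is not fixed by these counts.

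Of 13 known trimers of these chains, 6 had each chain at or above 1 TPM in both pups: laminins 411, 421, 211, 221, 511 and 521. By the scarcest chain, laminin 411 came first, at 41.1 ± 1.92 TPM. Its chains were so close that Lamc1 was the scarcest in replicate 1 and Lama4 in replicate 2. In laminin 421 the scarcest chain was Lamb2, at 31.4 ± 2.56 TPM. In the longer models laminins 411 and 421 could not be ranked, as both were set by Lamc1 in replicate 1 (22.1 TPM) and by Lama4 in replicate 2 (21.9 TPM). Laminins 211 and 221, the laminins of the mature fibre, were set by Lama2 at 21.2 ± 0.52 TPM, and laminins 511 and 521 by Lama5 at 12.1 ± 0.16 TPM. Laminins 311 and 321 were set by Lama3 at 0.295 ± 0.09 TPM, laminins 111 and 121 by Lama1 at 0.04 TPM, and laminins 423, 523 and 213 by Lamc3 at 0.03 ± 0.03 TPM. The α chain was the scarcest in both pups in 8 of the 13. RNA levels do not show which trimers were assembled.

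All 3 linkers were abundant. Nid1 (ENSMUSG00000005397.7, chromosome 13, 13437551 to 13512269, plus strand), the nidogen that joins the laminin γ1 chain to collagen IV, had 81.5 TPM in replicate 1 and 76.4 TPM in replicate 2. It has a single model, Nid1-201. Its relative Nid2 had 40.8 and 39.6 TPM, and the log2 ratio of Nid1 to Nid2 was 0.97 ± 0.04. Hspg2 (chromosome 4, 137468769 to 137570630, plus strand), which encodes the heparan sulfate proteoglycan perlecan, had 33.7 and 28.9 TPM, and its ratio to Nid1 was -1.33 ± 0.09. A noncoding model of 820 nt, Hspg2-202, took 57.1% and 57.7% of its TPM with 416 and 340 counts. The coding models Hspg2-201 (30.7% and 27.9%) and Hspg2-203 (12.2% and 14.4%) together gave 14.5 and 12.2 TPM, and in them the ratio to Nid1 was -2.56 ± 0.10. In TPM, perlecan RNA was below that of either nidogen, over all models and in the longer ones. By counts, not divided by length, Hspg2 had 6507 in replicate 1 and 5211 in replicate 2, against 5843 and 5363 for Nid2.

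Short annotated models thus bore on several levels. Of the 29 genes at or above 1 TPM, 5 had under 50% of their TPM in the longer models: Itgav (12.6%), Itga2b (15.7%), Lama5 (17.5%), Lama2 (40.7%) and Hspg2 (42.6%). Over the 39 genes, 20 had more than 95% there, Itga7, Itga5, Nid1 and Nid2 among them. In the longer models 28 genes reached 1 TPM, beside 55.3% of protein-coding genes, and Itgb8 was the one lost, at 0.89 and 0.79 TPM. Whether short models stand for real short RNAs was not tested.

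**Figure D3:**
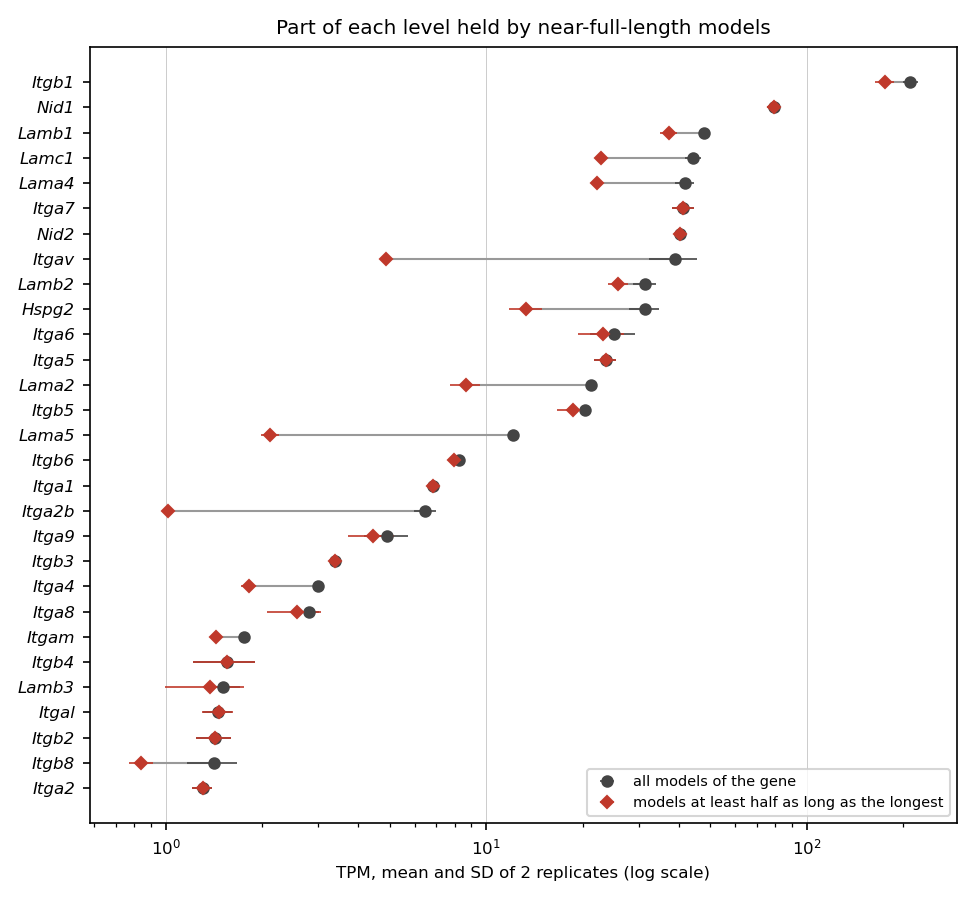
Level of the 29 genes at or above 1 TPM, as mean and SD of 2 replicates in TPM (log axis), over all models (circles) and over models at least 50% as long as the longest (diamonds). The symbols coincide for genes such as Itga7, Nid1 and Itga5 and lie far apart for Itgav, Lama5 and Itga2b.

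In 26 of these 29 genes the pups shared the leading transcript, of which 6 have 1 model. The exceptions were Lama2, described above, Lamb3 and Itgb4. Itgb4, whose forms differ in the long cytoplasmic tail, was led by Itgb4-202 in replicate 1 (44.3%, 131 counts), a model with 0% in replicate 2. Replicate 2 was led by Itgb4-204 (74.5%, 162 counts), which held 35.1% in replicate 1. By posterior means the gap was smaller, with Itgb4-202 at 27.0% and 9.87% and Itgb4-204 at 19.8% and 33.1%. Under 1 TPM, Itga3 was assigned to Itga3-201 in replicate 1 (99.99%) and mostly to Itga3-203 in replicate 2 (75.3%). Posterior means put Itga3-201 at 42.8% and 24.6% and Itga3-203 at 21.8% and 36.8%, which is a smaller gap on the same 116 counts. Lama3 has a long and a short coding model. The long one, Lama3-201, had 24.3 and 37.3 counts, and the short one, Lama3-202, which encodes the shorter form of the α3 chain known from skin, had 45.7 and 16.7. By TPM, Lama3-201 held 21.7% in replicate 1 and 53.8% in replicate 2, and Lama3-202 held 78.3% and 46.2%. The pups thus leaned to opposite forms, though by TPM replicate 2 was nearly even. This difference was not tested.

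Partners of the module were read from 4 lists. Of 20 integrin adaptors and activators, 18 had at least 1 TPM. The highest was Itgb1bp2, which encodes melusin, a muscle protein that binds the β1 tail, at 854 TPM in replicate 1 and 989 TPM in replicate 2. Integrin-linked kinase, Ilk, had 364 and 300 TPM, and kindlin-2, Fermt2, 130 and 134 TPM, whereas the epithelial kindlin Fermt1 had 21 and 0 counts. Of 16 other basement membrane components, 12 reached 1 TPM. They were led by the collagen-binding protein Sparc (2578 and 1795 TPM), the collagen IV chain Col4a1 (172 and 150 TPM) and the calcium-binding matrix protein Smoc2 (98.5 and 96.0 TPM). All 7 other laminin receptors reached it, led by Rpsa (345 and 378 TPM), which is chiefly a ribosomal protein, dystroglycan Dag1 (136 and 133 TPM) and the laminin α5 receptor Bcam (104 and 94.4 TPM). Dag1 was thus above Itga7 in both pups. Of 16 other integrin ligands, 14 reached it, led by the αv ligand Mfge8 (120 and 98.4 TPM), fibronectin Fn1 (92.7 and 84.4 TPM) and the α8 ligand nephronectin, Npnt (44.6 and 47.0 TPM).

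The pups were compared as a ratio of replicate 1 over replicate 2, on counts scaled by TMM. With 1 library per pup no test was possible, and intervals are exact 95% Clopper-Pearson intervals of the counts, which cover counting error only. Of the 39 genes, 36 had at least 10 mean counts; Itgad, Itgax and Lamc3 did not. Past 2-fold, 0 of the 36 were higher in replicate 1, beside 4.96% of the 17020 genes compared, and 0 were higher in replicate 2, beside 1.39%, or 6.36% of genes in either direction. With 36 genes, such a count is near the background and is no result about the module. The ratios of the 36 had a median log2 of -0.08, beside 0.01 for all genes, and ran between -0.47 for Itga8 and 0.89 for Itga11. The 15 genes with at least 1000 mean counts lay between -0.31 (Lama2) and 0.19 (Itga6).

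**Figure D4:**
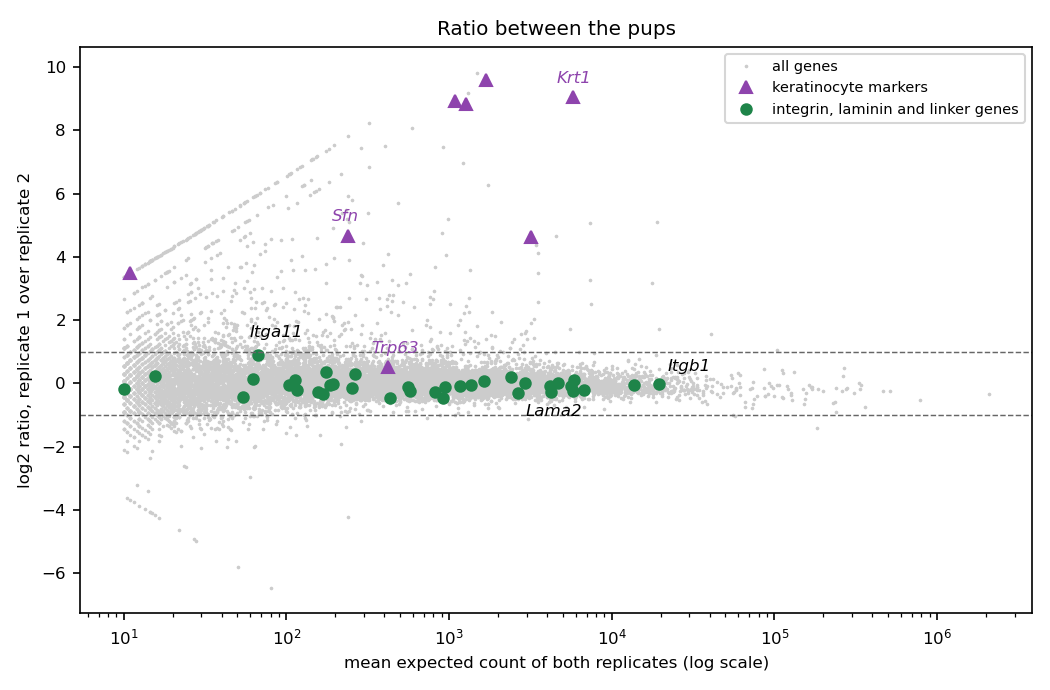
Log2 ratio of replicate 1 over replicate 2 (TMM-scaled) against the mean expected count (log axis) for all genes with at least 10 mean counts (grey), the 36 integrin, laminin and linker genes (green circles) and 8 keratinocyte markers (purple triangles); dashed lines mark 2-fold. The green circles all lie between the lines, while 7 of the 8 keratinocyte markers lie far above it.

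Among the chains of epithelial laminins, Lamb3 had 211 counts in replicate 1 and 141 in replicate 2, a log2 ratio of 0.36 (interval 0.05 to 0.69). Lama3 had 70 and 54 counts, a log2 ratio of 0.16 (-0.37 to 0.70). The α6β4 chains were Itgb4, with 309 and 218 counts and 0.29 (0.04 to 0.55), and Itga6, at 0.19 (0.11 to 0.28). Keratinocyte markers stood much further apart, with 7 of 8 past 2-fold higher in replicate 1 and a median log2 ratio of 6.74. Krt1 had 11507 and 17 counts, Krt10 6204 and 214, Lor 3393 and 2, Krt14 2533 and 3, Krt5 2158 and 2, Sfn 465 and 14, and Dsg3 22 and 0. Trp63, the basal epithelial regulator, had 523 and 316 counts and was not past 2-fold. Their part in the ratios of these chains was not tested. Of the other integrin ligands, the E-cadherin gene Cdh1 (203 and 22 counts) and osteopontin, Spp1 (337 and 98 counts), were past 2-fold in the same direction, and Madcam1, the ligand of α4β7 (25 and 46 counts), was past it in the other.

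Itga11 had the highest ratio of the 36, at 0.89 (0.38 to 1.48), from 92 counts in replicate 1 and 42 in replicate 2. Fibroblast markers had a median log2 ratio of 0.29 but were mixed, from -0.32 for Pdgfra to 0.50 for Col1a1, and their part was not tested. Counting intervals lay above 0 for 5 of the 36 genes, beside 25.2% of all genes, and these were Itga11, Lamb3, Itgb4, Itga6 and Hspg2. They lay below 0 for 12, beside 21.1% of all genes. The 12 held Itga9 (-0.45, interval -0.59 to -0.32), Itga8 (-0.47), Itgal (-0.33), Itga4 (-0.22), Nid1 (-0.04), Nid2 (-0.09) and 6 laminin chains, namely Lama2 (-0.31, interval -0.39 to -0.23), Lamb2 (-0.28), Lama5 (-0.25), Lamc1 (-0.23), Lamb1 (-0.22) and Lama4 (-0.08). Muscle fibre markers had a median log2 ratio of -0.28, satellite cell markers -0.18 and endothelial markers -0.03. Their part in the ratios of the 12 was not tested. The small ratios of the 36 genes depend on the unit. With TPM plus 1 the median of all genes moved to 0.12 and that of the 36 to 0.04. The sign turned for 13 genes, among them Lama4 (0.14), Lama2 (0.05), Itga4 (0.03), Nid1 (0.09) and Nid2 (0.04). Of these, Lama2 and Itga4 moved furthest, and further than the median of all genes. TPM, unlike counts, gives short models a large weight. In the longer models Lama2 (7.98 and 9.33 TPM) and Itga4 (1.75 and 1.89 TPM) were still lower in replicate 1. Lama4, Nid1 and Nid2 were higher in replicate 1 there. With TPM plus 1, Itga9, Itga8, Itgal, Lama5, Lamb1, Lamb2 and Lamc1 stayed below 0.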

How the data were processed

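Total RNA of 2 newborn muscle samples was sequenced. Per the labels' protocols, libraries were made from 10 ng of mirVana-extracted RNA above 200 nt with spike-ins. The authors quantified on mm10 with GENCODE M4 from alignments to transcripts, per the readme beside each table; aligner, quantifier and use of strand were not given in the sources used here. Per the file headers, the authors deposited expected counts (estimated reads per gene or transcript), TPM with its posterior mean, and each transcript's percent of the TPM of its gene. Short transcripts have a small effective length, so few reads give them a high TPM.

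Rows were matched to GENCODE M21 (same build) by Ensembl ID without version, which succeeded for 42462 of 43346 rows and all 40 members; 1 member and 2 genes of the marker lists are not reported here, but stayed in the fits. For ratios between the pups, rounded expected counts of all gene rows were scaled by TMM (edgeR 4.0.16 in R 4.3.3). They were compared as log2 CPM, prior count 2, and ratios were then kept for genes with at least 10 mean counts. The scaling and comparison were tested on simulated data. Pairs used log2(TPM + 0.1). No p-value was computed, since each pup gave 1 library. A count of 0 allows up to 3 counts, or 7.42e-06% and 8.08e-06% of the counts of replicates 1 and 2. Intervals and floors cover counting error only, as PCR copies were not told apart. In GENCODE M21, 14 members share exon bases with another gene, 2 of them more than 10%. Alternatives covered DESeq2 1.42.0 size factors, filters, pseudocounts, posterior means, limits and leaving out each pup. Software versions were Python 3.11.15, scipy 1.17.1, pandas 2.3.3, numpy 2.4.6 and, for plots, matplotlib 3.10.9.

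The members, pairs, complexes and lists were chosen with earlier results of these data known. Each of the other 39 members is named; of each list, the 3 genes with the highest mean TPM and those past 2-fold with at least 100 mean counts are named, and other list genes were named after their values were seen. Levels in models at least 50% as long as the longest were added after seeing the data. Sequences were read from GENCODE M21 transcripts.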

Additional observations from a re-analysis of the deposited data

How the results depend on the processing

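The count of genes at or above 1 TPM was 29; it was 18 at a limit of 5 TPM, 32 at 0.5 TPM, 30 with posterior means, 28 in models at least 50% as long as the longest, and 29 on leaving out either pup. Past 2-fold and higher in replicate 1 there were 0 genes, 1 without a count filter (Lamc3, from 6.94 and 1.18 counts) and 1 at 1.5-fold (Itga11); 0 genes were past it in the other direction under each setting run. Of 44 chain pairs, 22 had the gene on top of the ratio higher and 20 had it lower; with both pups, the alternatives gave 20 to 23 and 20 to 22, and there were 23 to 24 and 20 to 21 with a single pup. Itgav over Itgb5 turned to -0.25 with counts not divided by length and to -1.91 in the longer models, and Itgav over Itgb6 to -0.69 in the latter. Itga2b over Itgb3 turned to -1.53 and -1.65 under the same settings, and Itga5 over Itgav to 1.11 and 2.25. The longer models leave out the short models behind these TPM values, which is how they differ from the levels over all models. The scarcest chain stayed the same in 33 to 36 of 37 dimers and trimers under the longer models and posterior means, and in 35 to 37 with a single pup. The leading transcript was shared in 26 genes by TPM and by posterior means, with Lama2, Lamb3 and Itgb4 as exceptions, and in 26 by counts, with Itgav in place of Lama2. No paired analysis was possible because the samples form 1 group. Depth limits the genes of under 100 counts, such as Itga11, Itgae, Itgb7, Lama1, Lama3 and Lamc3.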
